A study of Mus musculus with 12 samples.

Results

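The 10 genes described here encode the receptors by which phagocytes bind antibody-coated or fungal material, the membrane adaptors that carry their signal, and the growth factor receptor and transcription factor of the macrophage line. They were listed by name: Tyrobp, Fcer1g, Fcgr1, Fcgr2b, Fcgr3, Fcgr4, Trem2, Clec7a, Csf1r and Spi1. Each was represented by the probe set, a group of short probes for 1 transcript, that carried only its symbol and had the highest mean over the 12 arrays. Of the 10 genes, 8 were among the 8505 genes tested, out of 18194 genes with a probe set. A gene was tested if its signal was over log2 4 on at least 3 arrays. Fcgr4 and Spi1 were each over that level on 1 array and were not tested. Fcgr1 passed on 6 arrays and Trem2 on 3, all of them from cerulein-treated mice, so those genes could be tested only because they were high in that group.

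Total RNA from whole mouse pancreas was hybridized to 12 Affymetrix arrays, 3 for each of 4 groups: C57BL6/J mice with chronic pancreatitis caused by cerulein, C57BL6/NHsd mice with the same condition, C57BL6/J controls injected with saline and C57BL6/NHsd controls injected with saline. The labels name the suppliers as Jackson for the J substrain and Harlan for the NHsd substrain, give an age of 8 weeks, describe the arrays of a group as biological replicates, and record no deletion or transgene. They state female sex for the saline mice only. The cerulein dose and the length of treatment are not given in the sources used here. Cerulein is a peptide that acts on the cholecystokinin receptor of acinar cells, and repeated dosing is a standard way of causing inflammation, acinar loss and fibrosis in the rodent pancreas.

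Activating Fc gamma receptors bind the constant part of IgG but have no signalling motif of their own in the mouse: they pair with the Fc receptor gamma chain, the product of Fcer1g. That adaptor and its relative DAP12, the product of Tyrobp, carry immunoreceptor tyrosine-based activation motifs (ITAMs), which recruit the kinase Syk once phosphorylated. Fcgr2b is the inhibitory exception, with an inhibitory motif in its own tail that recruits the phosphatase SHIP1. Trem2 signals through DAP12, Clec7a carries a related single-tyrosine motif itself, and Spi1 encodes PU.1, an ETS-family factor that binds purine-rich sites in the promoters of many myeloid genes. In whole tissue, more cells of a type and more RNA per cell cannot be told apart.

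Of the 10 genes, 4 lie within 274 kb of mouse chromosome 1 (GRCm38.p6), in the order Fcgr2b (170960558 to 170976071), Fcgr4 (171018926 to 171029761), Fcgr3 (171051169 to 171065915) and Fcer1g (171229572 to 171234349). Sequence upstream of the starts was taken from RefSeq promoter windows of the same build, which matched 7 of the 10 genes by symbol; Tyrobp, Spi1 and Csf1r had no entry. The PU.1 core GAGGAA was searched on both strands in the 100 bases before the start. It was present for 5 of the 7 genes (71.4%), against 9.82% of all 32851 windows of that length. In the whole windows of 300 bases the count was also 5 of 7, against 28.3% of all windows. The windows of the gamma chain, of 2 receptors that pair with it, of Trem2 and of Clec7a are shown because the genes' signals moved together on the arrays. Capitals mark the core, which reads TTCCTC where it lies on the opposite strand; each line runs 5′ to 3′ on the gene's strand and ends at the base before the start. The windows are chr1:171234350-171234449 (minus strand) for Fcer1g, chr1:171059404-171059503 (minus) for Fcgr3, chr3:96293970-96294069 (minus) for Fcgr1, chr17:48346301-48346400 (plus) for Trem2 and chr6:129472780-129472879 (minus) for Clec7a. Fcgr3 and Clec7a had 2 windows each, of which the first listed was used; that of Fcgr3 lies inside the span of the gene, at the start of a shorter transcript.
Fcer1g: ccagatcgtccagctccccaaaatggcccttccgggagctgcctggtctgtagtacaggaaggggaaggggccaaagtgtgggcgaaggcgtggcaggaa
Fcgr3: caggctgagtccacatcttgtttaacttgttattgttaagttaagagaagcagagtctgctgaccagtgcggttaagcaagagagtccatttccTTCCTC
Fcgr1: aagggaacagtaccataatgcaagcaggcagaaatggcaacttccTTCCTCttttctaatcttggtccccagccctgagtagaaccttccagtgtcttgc
Trem2: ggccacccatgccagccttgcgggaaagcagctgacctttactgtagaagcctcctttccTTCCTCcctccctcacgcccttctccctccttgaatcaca
Clec7a: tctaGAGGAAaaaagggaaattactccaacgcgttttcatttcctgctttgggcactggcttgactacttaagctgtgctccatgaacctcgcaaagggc
The core began 6 bases before the start in Fcgr3, 22 in Fcgr4, 40 in Trem2, 55 in Fcgr1 and 96 in Clec7a. The windows of Fcer1g and Fcgr2b did not hold these letters, which says nothing of binding by PU.1 elsewhere.

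The deposited values are log2 signals from 2.39 to 16.4, and a level of one probe set cannot be compared with that of another. The share of probe sets over log2 4 was 29.5% to 31.3% on cerulein arrays and 26.3% to 27.0% on saline arrays, and the median gene changed by 0.49 on the log2 scale. The spiked hybridization controls ran the other way, at 7.36 to 7.74 on cerulein arrays and 8.81 to 10.01 on saline arrays. The Gapdh 3′ minus 5′ gap, a measure of RNA integrity that grows with degradation, was 0.623 to 0.996 on cerulein arrays and 0.915 to 1.44 on saline arrays. The part of these shifts in the results was not tested. J cerulein replicate 1 stood apart from the other arrays, with a mean correlation of 0.951 with its group, against 0.969 to 0.985 for the other 11 arrays. Without it all 8 genes tested stayed called in the mean of both substrains, with changes of 3.79 for Tyrobp, 2.95 for Fcer1g, 2.54 for Fcgr3, 1.44 for Trem2 and 2.71 for Csf1r.

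In the mean of both substrains the adaptors had the largest changes of the probe sets used for the 8 genes tested; in NHsd mice Csf1r (2.66) was above Fcer1g (2.52). Tyrobp had log2 signals of 9.52, 8.59 and 8.19 on the J cerulein arrays and 7.96, 7.90 and 8.04 on the NHsd cerulein arrays, against 5.06, 3.85 and 4.10 on the J saline arrays and 5.03, 4.83 and 3.50 on the NHsd saline arrays. Every cerulein array lay at least 2.84 above every saline array, and J cerulein replicate 1 was the highest of all. Averaged over the substrains the change was 3.97 (SE 0.30), or 15.7-fold, with an adjusted p of 2.98e-07 by limma with Benjamini-Hochberg adjustment over all genes tested, the test used throughout. Fcer1g had 8.05, 8.24 and 7.63 on the J cerulein arrays and 7.40, 7.51 and 7.62 on the NHsd cerulein arrays, against 4.64, 3.93 and 5.09 in J saline mice and 4.91, 5.22 and 4.83 in NHsd saline mice. The groups again did not overlap, and the cerulein arrays spread over less than 1 log2 unit. The gamma chain rose by 2.97 (SE 0.18; 7.85-fold; limma adjusted p = 6.34e-08).

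Of the activating Fc gamma receptors, Fcgr3 was the most clearly measured. This low-affinity IgG receptor had 8.25, 7.76 and 7.19 on the J cerulein arrays and 7.16, 6.94 and 7.46 on the NHsd cerulein arrays, against 4.71, 4.70 and 4.71 in J saline mice and 4.86, 4.80 and 4.99 in NHsd saline mice. The 6 saline values were almost the same on every array, and whether they lie above the probe set's background was not tested. Fcgr3 rose by 2.67 (SE 0.16; 6.34-fold; limma adjusted p = 5.85e-08). Fcgr1, the high-affinity IgG receptor of monocytes and macrophages, had 5.72, 5.73 and 4.69 in J cerulein mice and 4.10, 4.31 and 4.64 in NHsd cerulein mice, against 3.25, 3.13 and 3.23 in J saline mice and 3.70, 3.13 and 3.14 in NHsd saline mice. All saline arrays were under log2 4, so its change of 1.60 (SE 0.19; limma adjusted p = 1.22e-05) depends on values under that level. Set against log2 4, Fcgr1 was at least 2.61-fold higher with cerulein in J mice and at least 1.27-fold higher in NHsd mice. A second Fcgr1 probe set stayed under log2 4 on every array and changed by -0.031.

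Fcgr4, a mouse receptor for IgG2a and IgG2b, was near the lowest value of the table. Its values were 4.01, 3.45 and 2.51 in J cerulein mice and 2.41, 2.40 and 3.84 in NHsd cerulein mice, while all saline arrays read 2.39 or 2.40. The single array over log2 4 was J cerulein replicate 1, so no change was tested. The signal left the floor on some cerulein arrays of both substrains and on none of the saline arrays.

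**Figure D1:**
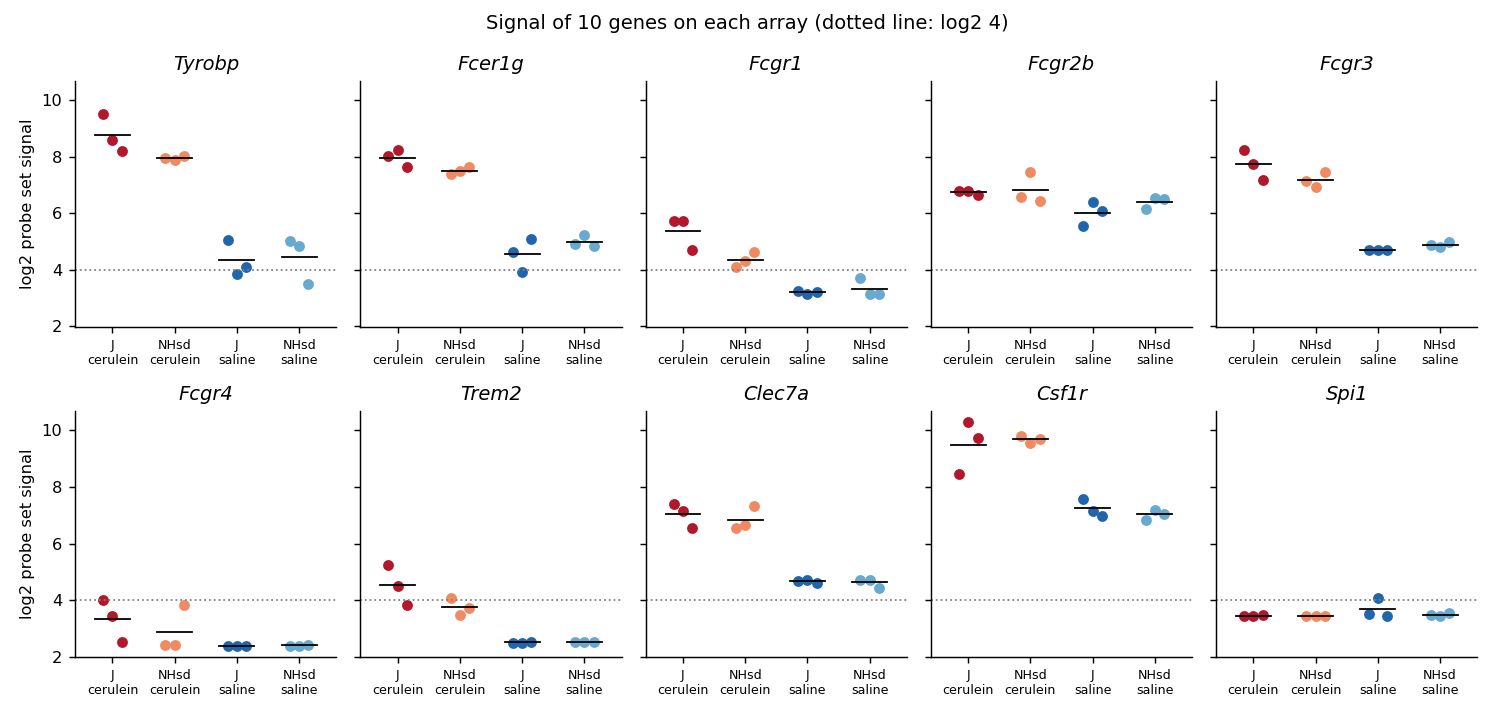
Log2 signal of each of the 10 genes (vertical axis, log2 units) on the 12 arrays, with 3 points a group for J cerulein, NHsd cerulein, J saline and NHsd saline mice; bars are group means and the dotted line is log2 4. Tyrobp, Fcer1g, Fcgr3, Clec7a and Csf1r show a wide gap between cerulein and saline arrays, Fcgr2b overlaps, and Spi1 stays near 3.43 on every cerulein array.

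The inhibitory receptor Fcgr2b differed between its own probe sets. The probe set with the highest mean had 6.80, 6.80 and 6.64 in J cerulein mice and 6.59, 7.46 and 6.45 in NHsd cerulein mice, against 5.56, 6.40 and 6.07 in J saline mice and 6.16, 6.54 and 6.49 in NHsd saline mice. The groups overlapped, since NHsd cerulein replicate 3 lay below the upper saline arrays. This probe set rose by 0.59 (SE 0.19; 1.50-fold; limma adjusted p = 0.0137). In J mice it rose by 0.74 (SE 0.26; limma adjusted p = 0.0315), and in NHsd mice the value was 0.44 (SE 0.26; limma adjusted p = 0.180). With all array medians set equal, the change was 0.0064 (limma adjusted p = 0.980).

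The other 3 Fcgr2b probe sets over the filter gave larger changes. The first, of the Affymetrix type _s_at, whose probes also match other transcripts, had 7.04, 7.30 and 6.55 in J cerulein mice and 6.60, 6.39 and 6.74 in NHsd cerulein mice, against 3.47, 3.15 and 3.57 in J saline mice and 4.23, 3.49 and 3.24 in NHsd saline mice. It changed by 3.25 (SE 0.18; limma adjusted p = 3.11e-08 over the genes tested, with this probe set in place of the one used). Only 1 saline array was over log2 4, so the change depends on values under that level. In J mice, where all saline arrays were under log2 4, it was at least 7.80-fold higher with cerulein. The next, of type _a_at like the probe set used for the gene, for alternative transcripts of 1 gene, changed by 2.35 (SE 0.10; limma adjusted p = 5.87e-09). Its values were 5.60 to 6.38 on cerulein arrays and 3.25 to 3.80 on saline arrays. With all saline arrays under log2 4, it passed the filter through the cerulein arrays, and its change depends on values under that level. Against log2 4 it was at least 4.52-fold higher with cerulein in J mice and at least 3.05-fold higher in NHsd mice. The last, of type _x_at, with probes partly alike to other sequences, changed by 1.94 (SE 0.27; limma adjusted p = 4.34e-05), and NHsd cerulein replicate 2 was its highest array, as it was for the probe set used for the gene. The fifth probe set sat at the floor of 2.39 on all cerulein arrays. Fcgr2b is also the Fc gamma receptor of B cells: of 9 B cell markers with a probe set, 8 were never over log2 4. Ms4a1, which encodes CD20, was the exception, with 3.35, 3.72 and 3.37 in J cerulein mice and 4.01, 4.40 and 5.34 in NHsd cerulein mice, and no saline array over 3.67. The part of B cells in the Fcgr2b signal was not tested.

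**Figure D2:**
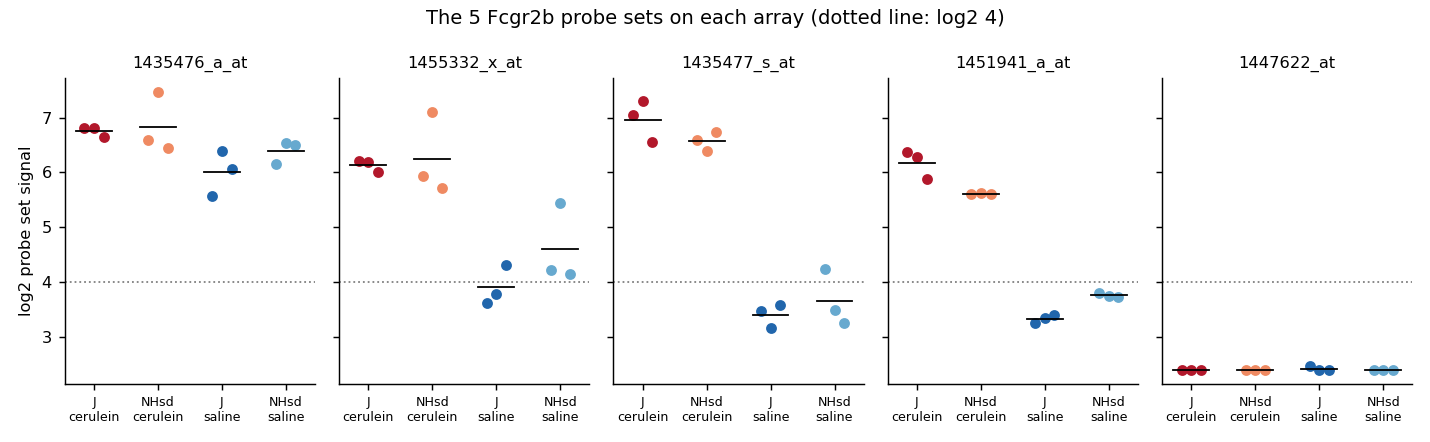
Log2 signal of the Fcgr2b probe sets (vertical axis, log2 units) on the 12 arrays, by group, with group means as bars and the probe set used for the gene at the left. The probe set used for the gene changes by 0.59 and overlaps between cerulein and saline arrays, whereas the _s_at probe set and the other _a_at probe set are separated by 2.17 and 1.80 log2 units between the lowest cerulein and the highest saline array.

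The receptors for fungal and lipid ligands rose too. Clec7a, which encodes dectin-1, the receptor for fungal beta-glucans, had 7.39, 7.16 and 6.56 in J cerulein mice and 6.53, 6.65 and 7.34 in NHsd cerulein mice, against 4.67, 4.72 and 4.61 in J saline mice and 4.71, 4.72 and 4.44 in NHsd saline mice. The groups were 1.81 apart at their nearest arrays, and NHsd replicate 3 was as high as the upper J arrays. Clec7a rose by 2.30 (SE 0.17; 4.91-fold; limma adjusted p = 2.27e-07), almost equally in J mice (2.37, SE 0.24) and NHsd mice (2.22, SE 0.24). Its saline values were close together, and J saline replicate 2 and NHsd saline replicate 2 both read 4.7246. Whether these values lie above the probe set's background was not tested. Trem2, a receptor for lipids and lipoproteins that is known from microglia and lipid-laden macrophages, had 5.26, 4.51 and 3.82 in J cerulein mice and 4.09, 3.47 and 3.73 in NHsd cerulein mice. All saline arrays read 2.50 to 2.53, near the floor. Its change of 1.63 (SE 0.20; limma adjusted p = 1.76e-05) rests on those values. Against log2 4, Trem2 was at least 1.44-fold higher with cerulein in J mice; in NHsd mice the cerulein mean was itself under log2 4 and no fold is given. A second Trem2 probe set stayed under log2 4 and changed by 0.023.

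Csf1r, the receptor for macrophage colony-stimulating factor and interleukin-34, had 8.46, 10.29 and 9.75 in J cerulein mice and 9.80, 9.55 and 9.71 in NHsd cerulein mice, against 7.59, 7.17 and 6.98 in J saline mice and 6.83, 7.20 and 7.05 in NHsd saline mice. J cerulein replicate 1, the highest array for Tyrobp and Fcgr3, was the lowest cerulein array here, and it still lay above every saline array. Csf1r rose by 2.45 (SE 0.25; 5.48-fold; limma adjusted p = 3.21e-06). Its second probe set changed by 2.06 (SE 0.25), and the remaining one by 0.65 (SE 0.18; limma adjusted p = 0.00565) with overlapping groups. In NHsd mice alone the value of the remaining one was 0.59 and was not called (limma adjusted p = 0.0642). That probe set read 4.92 on NHsd saline replicates 2 and 3 and on J saline replicate 2. Whether that value lies above its background was not tested. Spi1, the PU.1 gene, read 3.43 to 3.47 on all cerulein arrays and 3.43 to 4.09 on saline arrays, with J saline replicate 2 the only array over log2 4. The signal of the Spi1 probe set was therefore not measurable as a change on these arrays, and that holds for this probe set alone.

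Counted over the 8 genes tested, all 8 rose with cerulein in the mean of both substrains, where 59.4% of all genes tested rose. In J mice 8 of 8 rose (47.8% of all genes) and in NHsd mice 7 of 8 (48.7%), the exception being Fcgr2b. For 7 of the 8, again all but Fcgr2b, every cerulein array was above every saline array, as was the case for 40.0% of all genes. With array medians set equal, which lowers the median gene by 0.58, 7 of 8 rose, against 26.6% of all genes, and in NHsd mice 5 did, against 20.2% of all genes, since Fcgr1 (0.44, limma adjusted p = 0.155) and Trem2 (0.64, limma adjusted p = 0.0658) lost their calls there. The median change of the 8 genes was 2.38, against 0.49 over all genes tested. Since most genes rose and 2 of the 8 passed the filter through the cerulein arrays, these counts describe the 8 genes and are not a test of them.

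The second question of the design is whether the substrains differed. The change was larger in J than in NHsd mice for 7 of 8 genes, the exception being Csf1r, and 49.1% of all genes had a positive difference. The exception rests on the probe set used: the other 2 kept Csf1r probe sets gave 0.19 and 0.13. Fcgr1 differed most, with a change of 2.18 (SE 0.27) in J mice and 1.03 (SE 0.27) in NHsd mice, a difference of 1.15 (SE 0.38; limma adjusted p = 0.702). For Tyrobp the changes were 4.43 in J mice and 3.51 in NHsd mice (SE 0.43 each), for Fcer1g 3.42 and 2.52 (SE 0.26 each), for Fcgr3 3.03 and 2.30 (SE 0.23 each) and for Trem2 2.02 and 1.23 (SE 0.29 each). None of the 8 differences passed the test, as was so for all but 0.0118% of genes; at an unadjusted p under 0.05 there were 3 (Fcer1g, Fcgr1 and Fcgr3), and 7.03% of all genes reached that. Without J cerulein replicate 1, the difference was 0.98 for Fcgr1 and 0.86 for Fcer1g. Without that array it was 0.54 for Tyrobp (0.92 with all arrays), 0.43 for Trem2 (0.79) and 0.46 for Fcgr3 (0.72). Clec7a turned to -0.020 without it (0.16 with all arrays) and Csf1r to 0.12 (-0.40, SE 0.50). One kept Fcgr2b probe set, the _a_at one not used for the gene, had a difference of 0.998 (SE 0.21; limma adjusted p = 0.420) that also reached an unadjusted p under 0.05, with all its saline arrays under log2 4.

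Within a treatment the substrains were set against each other as J minus NHsd. In saline mice none of the 8 genes was called, 0 reached an unadjusted p under 0.05, and the median difference was -0.12; 0.0588% of all genes were called. In cerulein mice none was called either, against 0.223% of all genes, and 3 reached an unadjusted p under 0.05, against 9.41% of all genes: Fcgr1 (1.03, SE 0.27; limma adjusted p = 0.226), Trem2 (0.77) and Fcgr3 (0.54). All 3 J cerulein arrays lay above all 3 NHsd cerulein arrays for Tyrobp, Fcer1g and Fcgr1, an order that 7.94% of all genes showed; the gap between nearest arrays was 0.15 for Tyrobp, 0.055 for Fcgr1 and 0.011 for Fcer1g. For Fcgr1 the lowest J cerulein array was replicate 3 (4.69). Without that array the J minus NHsd value of Fcgr1 was 1.38 and passed the test (limma adjusted p = 0.0270), so that call is decided by 1 array. Without J cerulein replicate 1 the values were 0.86 for Fcgr1, 0.40 for Trem2 and 0.29 for Fcgr3, and none passed the test. The other _a_at probe set of Fcgr2b gave 0.57 in cerulein mice (SE 0.15; limma adjusted p = 0.224) and -0.43 in saline mice (SE 0.15; limma adjusted p = 0.623), where it was under log2 4.

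**Figure D3:**
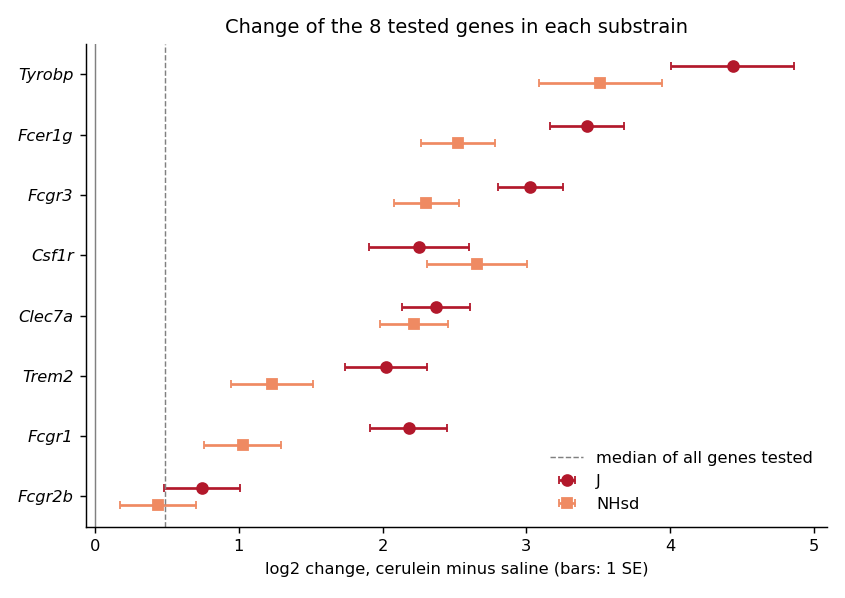
Log2 change, cerulein minus saline, in J mice and in NHsd mice for each gene tested; points are limma estimates from 3 arrays a group and bars are 1 SE, with the median of all genes as a dashed line. Csf1r is the only gene with a larger change in NHsd mice, and the 2 bars of Clec7a, Fcgr2b and Csf1r overlap.

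Differences between genes were compared on each array, where a scaling common to the array cancels. For each of 6 pairs chosen by role, the difference in log2 signal was set between the 6 cerulein and the 6 saline arrays in an exact two-sided permutation test over all assignments of the arrays to the 2 treatments, with Benjamini-Hochberg adjustment over the 6. Tyrobp rose by 1.002 more than Fcer1g (exact p = 0.00649, adjusted 0.00974), by 1.01 in J mice and by 0.99 in NHsd mice. On 2 of the saline arrays Tyrobp was under log2 4, and Fcer1g was under it on J saline replicate 2 (3.93). The pairs of Trem2 with Tyrobp, Csf1r with Spi1, and Fcgr2b with Fcgr1 and Fcgr4 each hold a gene under log2 4 on all or nearly all saline arrays, so their differences are no measure of unequal change and no test is read from them.

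The inhibitory Fcgr2b was set against the activating Fcgr3 in the same way, and the answer depended on its probe set. With the probe set used for the gene, the change of Fcgr2b minus that of Fcgr3 was -2.08 (exact p = 0.00216, adjusted 0.00433, the smallest p this design allows). With the _s_at probe set it was 0.58, and 5 of the 6 saline arrays of that probe set were under log2 4. The other _a_at probe set, under log2 4 on all saline arrays, gave -0.31. As for the pairs above, no test is read from the _s_at value or from that of the other _a_at probe set. The _x_at probe set gave -0.72 (exact adjusted p = 0.130). The size of the difference varied over the Fcgr2b probe sets, and its sign turned only with the _s_at one. No order of inhibitory and activating receptors is therefore drawn from them. The other probe sets were added as alternatives after the data were seen.

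J cerulein replicate 1 split the 8 genes. It lay above all other 5 cerulein arrays for Tyrobp (9.52, against a mean of 8.14), Trem2 (5.26, against 3.92), Fcgr3 (8.25, against 7.30) and Clec7a (7.39, against 6.85), and below all of them for Csf1r (8.46, against 9.82). Such extremes were common on this array: it was above the other 5 for 34.6% of all genes and below them for 31.2%. The macrophage markers split too. Of 16 tested, 7 were above the other cerulein arrays, among them Aif1 and the complement genes C1qa, C1qb and C1qc, and 3 were below, namely Mrc1, Mpeg1 and Cd163. Its Gapdh 3′ minus 5′ gap of 0.829 was within the range of the cerulein arrays, as was that of actin (1.73). Its gaps for pyruvate carboxylase (1.82) and the transferrin receptor (0.102) were the lowest of the 12 arrays. Of 12 acinar markers tested, 8 were below the other 5 cerulein arrays and 0 above, against 31.2% and 34.6% of all genes. The part of these in the position of this array was not tested.

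**Figure D4:**
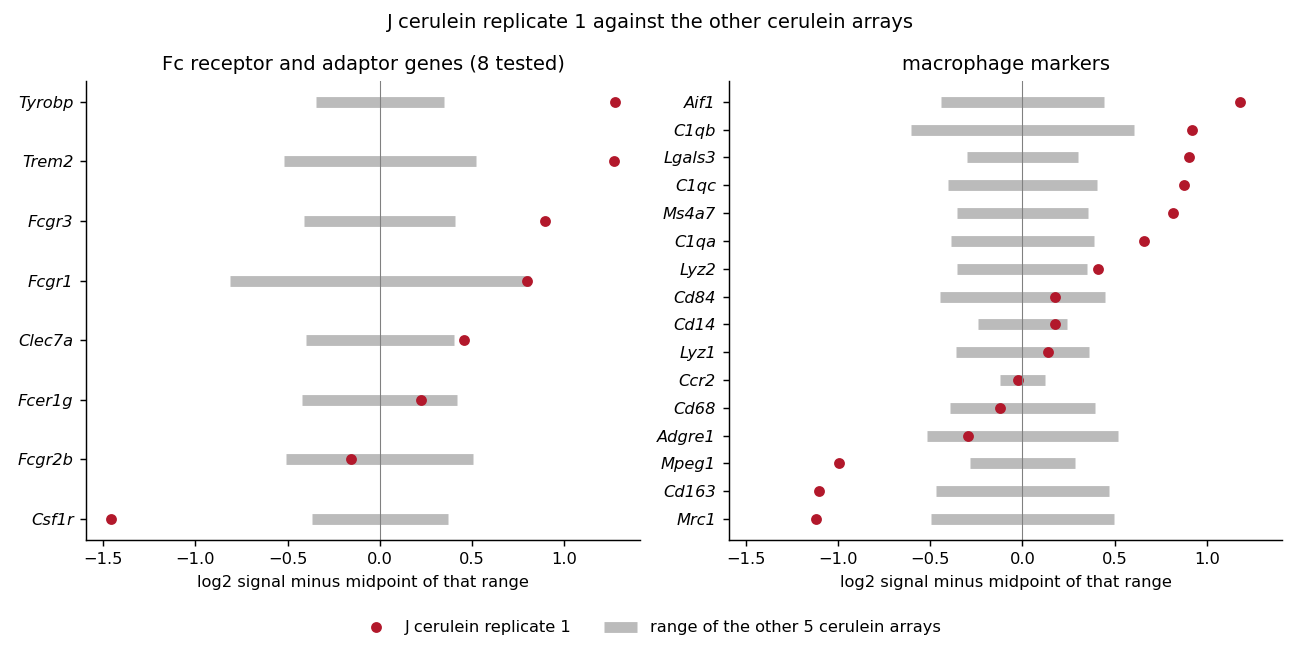
Log2 signal on J cerulein replicate 1 (points) and the range of the other 5 cerulein arrays (bars), both relative to the midpoint of that range (horizontal axis, log2 units), for the 8 genes tested and 16 macrophage markers. Tyrobp, Trem2, Fcgr3 and Clec7a lie above their bars and Csf1r, Mpeg1, Cd163 and Mrc1 below theirs.

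The genes that surround these receptors in the pathway were counted from lists chosen by function. Some of them were under log2 4 on all saline arrays and passed the filter through the cerulein arrays. Counts and medians of the lists therefore describe the genes tested and are no test of a list. Of 19 receptors known to couple to DAP12 or the gamma chain, 18 had a probe set and 13 of those were never over log2 4. The single one tested, Cd300c2, rose by 0.92 (SE 0.12; limma adjusted p = 2.11e-05). Downstream of the ITAM, 7 of 11 kinases, scaffolds and effectors tested rose and none fell, near the 59.4% of all genes that rose (10.1% fell), with a median of 0.49, equal to that of all genes. Among them were Fyb, an adaptor of integrin activation (1.30, SE 0.18), and Bcl10, which links to NF-kappaB (1.16, SE 0.14). Blnk, a scaffold for phospholipase C gamma, was under log2 4 on all saline arrays and at least 1.21-fold higher with cerulein in J mice. With array medians set equal, 4 of the 11 rose and 3 fell (Fgr, Lcp2 and Pik3ap1), against 26.6% of all genes higher and 36.1% lower. Syk was over log2 4 on too few arrays to be tested.

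Inhibitory receptors and phosphatases held 8 genes that rose and 1 that fell among 10 tested, against 59.4% higher and 10.1% lower over all genes, with a median of 0.91. Clec4a3, a lectin of the inhibitory DCIR family, was under log2 4 on all saline arrays. It was at least 3.61-fold higher with cerulein in J mice and at least 2.27-fold higher in NHsd mice. Its call (limma adjusted p = 6.27e-09) depends on values under that level. Sirpa, the receptor for CD47, rose by 1.87 (SE 0.19), while Cd300lf, which can inhibit myeloid cells, fell by 0.87 (SE 0.11; limma adjusted p = 2.47e-05). Sirpa read 3.09 to 4.23 on saline arrays and Cd300lf 3.86 to 4.47 on cerulein arrays. Both changes thus depend in part on values under log2 4. With array medians set equal, 4 rose and 3 fell (Cd300lf, Cd72 and Pirb), against 26.6% higher and 36.1% lower over all genes. All 12 genes tested of the phagocytic cup and NADPH oxidase rose, against 59.4% of all genes, with a median of 1.60. Wipf1, Nckap1l, Lsp1, Ncf1 and Gas7 were under log2 4 on all saline arrays and passed the filter through the cerulein arrays. The catalytic oxidase subunit gene Cybb rose by 2.65 (SE 0.26) and the oxidase subunit gene Cyba by 2.05 (SE 0.15). The F-actin binding Lsp1, under log2 4 on all saline arrays, was at least 3.17-fold higher with cerulein in J mice and at least 2.45-fold higher in NHsd mice. With medians set equal 10 of these 12 rose.

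All 4 other Fc receptors tested rose, against 59.4% of all genes. These were Fcrls, an Fc receptor-like scavenger receptor (2.27, SE 0.14), and the neonatal Fc receptor Fcgrt (1.54, SE 0.10). The others were the epithelial polymeric Ig receptor Pigr (1.52, SE 0.21) and the cytosolic antibody receptor Trim21. On saline arrays Fcrls read 3.58 to 4.11 and Trim21 was always under log2 4. Their changes thus depend at least in part on values under that level. All 4 rose also with medians set equal, against 26.6% of all genes. Of the colony-stimulating factor group, 3 of 4 rose, against the same 59.4%. They were Kitl, the Kit ligand (2.00, SE 0.25), the shared cytokine receptor Csf2rb and Csf1, the ligand of Csf1r (0.77, SE 0.21; limma adjusted p = 0.00493). Csf2rb, under log2 4 on all saline arrays, was at least 1.57-fold higher with cerulein in J mice and at least 1.75-fold higher in NHsd mice. Csf1 spanned 3.78 to 5.08 on cerulein arrays and 3.32 to 4.12 on saline arrays. It lost its call with medians set equal, where 2 of the 4 rose, against 26.6% of all genes. Of 9 myeloid transcription factors tested, 8 rose and none fell, against 59.4% higher and 10.1% lower over all genes. Among those that rose were Maf (2.93, SE 0.22) and the immediate early gene Egr1 (2.52, SE 0.23). The ETS factor Fli1, under log2 4 on all saline arrays, was at least 2.51-fold higher with cerulein in J mice and at least 2.35-fold higher in NHsd mice. With medians set equal, 4 of the 9 rose and Gfi1 fell, against 26.6% higher and 36.1% lower over all genes.

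**Figure D5:**
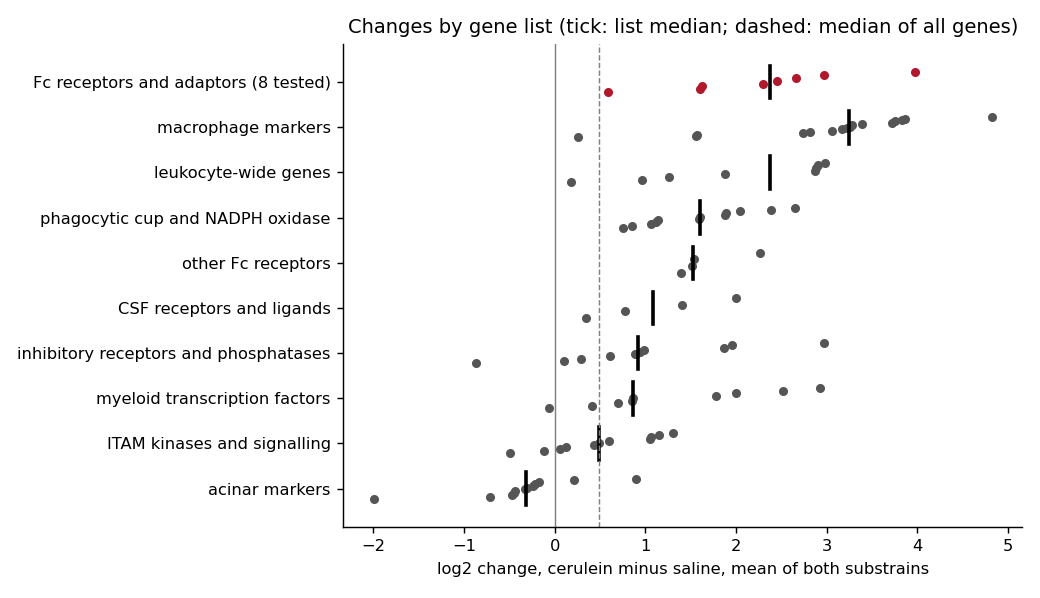
Log2 change, cerulein minus saline, mean of both substrains (horizontal axis), for each gene tested (points) by list, with list medians as ticks and the median of all genes, 0.49, as a dashed line. The 8 Fc receptor and adaptor genes have a median of 2.38, the macrophage markers 3.24 and the acinar markers -0.32.

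Markers of the cell types that express these receptors moved in the same comparison, and their part in the changes was not tested. All 16 macrophage markers tested rose, against 59.4% of all genes, with a median of 3.24. Adgre1, Cd68, Cd14, Aif1, Ms4a7 and Cd84 were under log2 4 on all saline arrays and passed the filter through the cerulein arrays. The count and the median therefore describe these markers and are not a test of them. Ms4a7 was at least 15.7-fold higher with cerulein in J mice and at least 11.3-fold higher in NHsd mice. C1qc rose by 3.86 (SE 0.17). With medians set equal 15 rose and Ccr2 fell, against 26.6% higher and 36.1% lower over all genes. The summed macrophage signal was log2 14.2 to 14.5 in J cerulein mice and 13.8 to 14.2 in NHsd cerulein mice, against 10.3 to 11.2 in J saline mice and 10.6 to 11.1 in NHsd saline mice. That sum is of unlogged signals, so its brightest probe set weighs most in it. This was Lyz1, at 13.1 to 13.9 on cerulein arrays and 9.65 to 10.6 on saline arrays. Of the leukocyte-wide genes 7 of 8 rose, against 59.4% of all genes, with Cd52 (2.98, SE 0.41) and Cd53 (2.91, SE 0.29) first. Of the natural killer markers, 9 of 10 were never over log2 4, and of the mast cell markers 10 of 12; the 2 mast cell genes tested, Kit and Gata2, were not called. The 2 neutrophil genes tested, S100a8 and S100a9, were not called in the mean of both substrains, but S100a8 rose in J mice (2.99, SE 1.12; limma adjusted p = 0.0380). Their arrays varied widely, S100a8 from 4.46 to 8.95 with cerulein and from 2.86 to 8.01 with saline. The T cell list had 9 markers with a probe set, of which 8 were never over log2 4. Its only marker tested, Zap70, read 3.26 to 3.61 on cerulein arrays and 4.15 to 4.89 on saline arrays. Zap70 thus passed the filter through the saline arrays, and its fall of 1.20 (SE 0.14) depends on values under log2 4. Among the 9 dendritic markers with a probe set, 7 were never over log2 4. The 2 tested went opposite ways. Clec10a rose by 1.31 (SE 0.11), and Zbtb46 had a value of -0.35 (SE 0.21) that was not called (limma adjusted p = 0.150). Zbtb46 was called lower with medians set equal and with quantile normalization. The acinar markers held 9 genes that fell and 1 that rose of 12, against 10.1% lower and 59.4% higher over all genes. The amylase gene Amy1 fell by 1.99 (SE 0.11) and the acinar transcription factor Rbpjl rose by 0.90 (SE 0.18). With medians set equal 11 acinar markers fell and none rose, against 36.1% lower and 26.6% higher over all genes. Quantile normalization left 5 of them lower, where 34.2% of all genes fell.

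The genes outside the 10 whose pattern over the 12 arrays was nearest to the mean pattern of the 8 tested genes were Lsp1, Rpa2, Tubb4b, Cmtm3 and Hacd4. After each gene's mean was removed, their root mean square difference from that pattern was 0.146, 0.168, 0.170, 0.183 and 0.184 log2 units, against a median of 0.953 over 8497 genes. All but Tubb4b, a beta-tubulin gene that rose by 2.26, were under log2 4 on every saline array. Of the 8 genes themselves, Clec7a was nearest to the mean pattern (0.190) and Tyrobp farthest (0.953), followed by Fcgr2b (0.939).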

How the data were processed

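RNA of 12 mouse pancreases, 3 for each of 4 groups, was measured on Affymetrix arrays. The deposited values are log2 signals per probe set; GCRMA and Partek are named, with no version, in the submitters' processing notes, and the other steps are not given in the sources used here. GCRMA subtracts background by probe sequence. Dim probe sets sat near a floor, 2.39 at its lowest, that differed between probe sets. The second Fcgr1 probe set repeated 3.49, and the Csf1r probe set of smallest change repeated 4.92 on saline arrays. Low values, possibly including some over log2 4, therefore carry little information, and no detection call was used. The number of arrays limits the precision: the median SE of a comparison of 3 against 3 arrays was 0.202.

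Of 45101 probe sets, 34958 carried 1 symbol in the platform annotation, 932 several and 9211 none. Those over log2 4 on at least 3 arrays were kept (12780), and of several kept for 1 gene the brightest on average stood for it (8505 genes). limma 3.58.1 (R 4.3.3) fitted 1 mean per group over all 12 arrays, with an intensity trend in eBayes, two-sided tests, Benjamini-Hochberg adjustment over the 8505 genes and a threshold of 0.05. The change in both substrains is the mean of the changes in J and in NHsd. Where all saline arrays were under log2 4, "at least" folds are the cerulein mean over log2 4. The fit was tested on simulated data.

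The genes and the lists (16 lists, 232 symbols, 93 tested) were chosen with earlier results of these data known. Named from each pathway list were up to 3 called genes that rose and 2 that fell most, from each cell type list up to 2 with the largest change, and the 5 genes of nearest pattern; genes named for the extremes of J cerulein replicate 1, for a fall under another scaling, or as tested but not called, and Trim21, were added after their values were seen. The labels do not say that replicate numbers pair mice. Deviations of same-numbered arrays correlated by -0.162 to 0.341 over 18 pairs, and 6 exceeded 0.1. Those of differently numbered arrays correlated by -0.365 to 0.249 over 36 pairs, and 8 exceeded 0.1. For 6 of the 12 arrays the best correlated array of another group had the same number. Since the labels state no pairing, none was used. Alternatives were other normalizations, filters, moderation, probe sets, the groups in the fit, a fold threshold, a replicate block and leaving out each array. No column of another series was present.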

Additional observations from a re-analysis of the deposited data

How the results depend on the processing

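All 8 genes stayed called in the mean of both substrains without any 1 array (8 to 8). In J mice 7 to 8 were called and in NHsd mice 7. Over all 8505 genes, 5526 to 6151 were called in either direction in the mean without 1 array. In J mice the range was 3931 to 4899 and in NHsd mice 3813 to 5257. With the replicate number as a block, 8 were called in the mean of both substrains, 8 in J mice and 7 in NHsd mice. None was called between substrains, so the block changed no call of the 8 genes. Over all 8505 genes the block gave 5086 higher in the mean, 4086 in J mice and 4172 in NHsd mice. With equal medians 7 were called in the mean and in J mice and 5 in NHsd mice, where Fcgr1 (0.44) and Trem2 (0.64) were lost. Over all 8505 genes, 2262 were then called higher in the mean, 1777 in J mice and 1721 in NHsd mice. Quantile normalization gave the same counts for the 8 genes, against 2384, 1852 and 1817 over all genes. Fcgr2b (0.0064 with equal medians, 0.013 with quantile normalization) lost its call under both; in J mice it also lost it without J cerulein replicate 1 (0.71) or 2 (0.71) or J saline replicate 1 (0.52) or 3 (0.77), and with no filter (adjusted p = 0.0935 by limma). Between substrains, 0 to 1 genes were called in cerulein mice and 0 in saline mice without 1 array. The cause of these changes was not tested.

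Other probe sets turned the sign for Fcgr1 (-0.031 in the mean, -0.025 in J mice, -0.037 in NHsd mice), Fcgr2b (-0.012 in the mean, -0.024 in J mice) and Trem2 (-0.0088 in NHsd mice); all of these are probe sets that failed the filter. The difference Fcgr2b minus Fcgr1 ranged from -1.26 to -0.84 without 1 array and lost its call in 7 of 12 cases, with fewer arrays to permute. It turned to 0.34 with the _x_at probe set, to 1.64 with the _s_at and to 0.75 with the other _a_at probe set. Fcgr2b minus Fcgr3 ranged from -2.32 to -1.92 without 1 array and was -0.72 (not called) with the _x_at probe set. With the _s_at probe set, under log2 4 on nearly all saline arrays, it turned to 0.58. Fcgr2b minus Fcgr4 ranged from -0.40 to 0.094 and turned to 1.23, 2.54 and 1.64 with the same 3 probe sets. Tyrobp minus Fcer1g (0.81 to 1.16) kept its call without any 1 array. The pairs of Trem2 with Tyrobp, Csf1r with Spi1, and Fcgr2b with Fcgr1 or Fcgr4 hold a gene under log2 4 on all or nearly all saline arrays, so their values say nothing about stability. Without J cerulein replicate 1 the J minus NHsd difference of the cerulein effect turned to -0.020 for Clec7a and to 0.12 for Csf1r. Over all genes, cerulein against saline gave 5049 higher and 855 lower, but 2262 and 3072 with equal medians and 2384 and 2905 with quantile normalization. J against NHsd in cerulein mice gave 19 genes, and 5 to 89 without 1 array. With the replicate block it gave 3 genes higher and 4 lower.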
